A study of Mus musculus with 8 samples.

Results

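The genes described here encode the integrins, the laminin chains and the basement membrane proteins that join them in the cardiac ventricle of tumor-bearing mice. They were chosen by symbol among the protein-coding genes of the deposited count table: every gene beginning with Itga or Itgb, every laminin α, β or γ chain, the nidogens Nid1 and Nid2, and 6 linkers listed by name (Hspg2, Agrn, Dag1, Ilk, Parva and Lims1). The choice gave 50 of the 43346 genes in the table. They comprised 26 integrin subunits, 5 genes with an Itgb symbol whose products are not integrin subunits, 11 laminin chains, 2 nidogens, 2 heparan sulfate proteoglycans (Hspg2 and Agrn), dystroglycan (Dag1) and the 3 members of the complex of integrin-linked kinase, PINCH and parvin.

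Laminins are trimers of an α, a β and a γ chain that polymerize into a sheet on the cell surface, and nidogens and the heparan sulfate proteoglycans tie that sheet to the type IV collagen network, which together form the basement membrane. Cells hold on to laminin through integrins, which are pairs of an α and a β subunit, and through dystroglycan, which reaches the actin cytoskeleton by way of dystrophin. Each cardiomyocyte and each capillary in the ventricle is wrapped in such a membrane, and in the cardiomyocyte the α7β1 integrin and dystroglycan at the costamere carry force between the sarcomere and the matrix.

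Ventricular tissue came from male C57BL/6 mice that received an injection at 7 weeks of age and were killed 14 days later. The LLC1 group (4 mice) received 1000000 LLC1 cells, a transplantable line of Lewis lung carcinoma, under the skin of the flank, and the PBS group (4 mice) received the vehicle, phosphate-buffered saline. No transgene or drug is named for either group, the tumor came from a single cell line, and the RNA was that of the whole ventricle, with no cell type isolated. Mice are named by group and by the code in their labels, and single values are given in the order 1-2, 1-3, 1-5 and 2-2 for LLC1 mice and 1-1, 1-3, 2-1 and 2-5 for PBS mice.

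Library totals were 12480706 to 19747596 counts, with a median higher in the LLC1 group, so a gene at 1 CPM (counts scaled to 1000000 per library) rests on between 12 and 20 counts in a library. The first principal component (31.5% of the variance) separated the LLC1 from the PBS mice, and the second (25.2%) set PBS 1-1 apart from the other PBS mice. Markers of cardiomyocytes summed to 95385 CPM or more in every mouse, while those of skeletal muscle summed to at most 3.30 CPM. Of 16111 genes that passed the filter on low counts, 663 were higher and 743 lower in LLC1 mice at a false discovery rate (FDR, the Benjamini-Hochberg adjusted p of edgeR's quasi-likelihood test over all genes tested) under 0.05, and the median log2 fold change of all genes was -0.01.

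Of the 50 members, 46 passed the filter, and 13 of them changed at an FDR under 0.05, against a background of 8.73% of all genes tested. Among them 3 were higher in LLC1 mice (Lama5, Lamb2 and Itgb3bp; background 4.12%) and 10 were lower (Itga6, Itga1, Itga4, Itga8, Itga9, Itgax, Itgb6, Lama4, Nid1 and Nid2; background 4.61%). The median log2 fold change of the 46 was -0.18, with 17 values above and 29 below 0. The LLC1 and PBS values did not overlap for 16 members, against 17.2% of all genes. The 4 members that failed the filter were Itga2 (4 to 14 counts in a library), Itgae (2 to 9 counts), Lama1 (0 to 3 counts) and Itgb2l, which had 0 counts in every mouse.

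The count of members called depended on single mice. Without PBS 1-1, the library that stood apart, 17 members passed, 3 higher and 14 lower, which included all 13 above, and calls over all genes rose to 1949 of 16319. Leaving out LLC1 1-2, LLC1 1-3, LLC1 1-5 or PBS 1-3 left 6 in each case, namely Itga6, Itga1, Itgb6, Lama4, Lama5 and Lamb2, which passed in all 8 such fits. In those 4 fits the calls over all genes fell to between 542 and 751. Without PBS 2-1 the count was 8. Scaling to total counts alone gave 10 members, 0 higher and 10 lower, with FDR values of 0.0503 for Lama5 and 0.0519 for Lamb2, whereas offsets for gene length gave 6 higher and 10 lower.

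**Figure D1:**
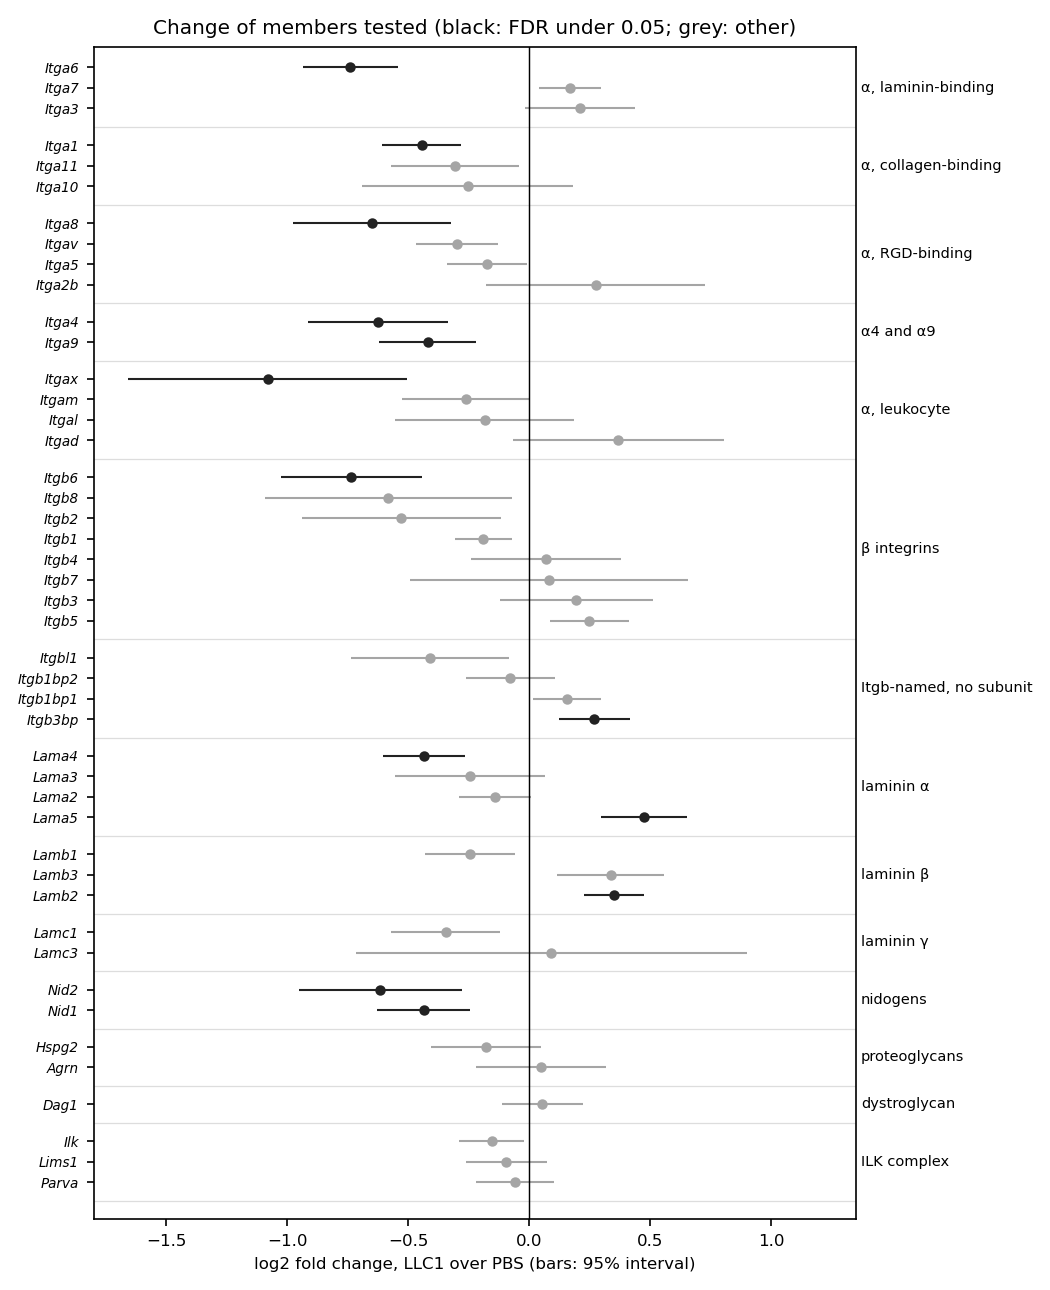
The log2 fold change of LLC1 over PBS mice is plotted for 45 of the 46 members tested, grouped by role, with bars for the 95% interval and black marks for an FDR under 0.05. The 10 members called lower include 7 integrin subunits and both nidogens, and the laminin chains Lama5 and Lamb2 lie to the right of 0.

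The laminin α chain sets which receptors a laminin trimer can engage, and Lama5 encodes the α5 chain of endothelial and epithelial basement membranes. Its level was 424, 549.8, 481 and 505 CPM in LLC1 mice and 305, 364, 376 and 366 CPM in PBS mice. Every LLC1 mouse was above every PBS mouse, and PBS 1-1 was the lowest of all 8. The level rose 1.39-fold in LLC1 mice, or 0.47 on the log2 scale with a standard error (SE) of 0.09 and an FDR of 0.0099. Lama5 lies at chr2:180176373-180225859 of build mm10.

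The laminin α4 chain, encoded by Lama4, is typical of the capillary wall and of muscle interstitium. Lama4 stood at 94.9, 109, 90.7 and 99.02 CPM in LLC1 mice and at 115, 137, 129.9 and 150.4 CPM in PBS mice. The groups did not overlap, with LLC1 1-3 the closest to the PBS range. It fell by 0.44 on the log2 scale (SE 0.09, FDR 0.0119), or to 0.739 times the PBS level. In these whole-tissue libraries, fewer cells of a type and less RNA per cell cannot be told apart, which holds for every gene below.

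Lama2 encodes the α2 chain, the main laminin α chain around cardiomyocytes and skeletal muscle fibers. It measured 162, 179, 163 and 179.8 CPM in LLC1 mice and 169.5, 178, 199.9 and 207 CPM in PBS mice, and the groups overlapped. Its log2 fold change of -0.14 had a 95% interval from -0.29 to 0.01 and an FDR of 0.268. Lama3, a chain of epithelial laminin, averaged 4.14 ± 0.482 CPM (SD, n = 4) in LLC1 and 4.89 ± 0.910 CPM in PBS mice and did not pass (FDR 0.359).

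Lamb2 encodes the β2 chain, which is found at the neuromuscular junction, in the kidney filter and in cardiac and vascular basement membranes. The level of Lamb2 was 649, 696, 653 and 690.2 CPM in LLC1 mice against 505, 498, 546 and 558 CPM in PBS mice. The lowest LLC1 mouse stood well above the highest PBS mouse. It rose 1.28-fold (log2 fold change 0.35, SE 0.06, FDR 0.0081). Lamb2 occupies chr9:108479736-108490530.

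Lamb1, the other broadly expressed β chain, showed 131, 145, 137 and 144 CPM in LLC1 mice and 146, 174, 144 and 196 CPM in PBS mice. The groups overlapped through PBS 2-1. Its log2 fold change was -0.24 (95% interval -0.43 to -0.06) with an FDR of 0.131, or 0.0481 without PBS 1-1. Lamc1, the γ chain that most laminins share, had values of 226, 233, 224 and 253 CPM in LLC1 mice and 222, 312, 302 and 353 CPM in PBS mice. PBS 1-1 lay below all LLC1 mice and the other PBS mice above them, giving a log2 fold change of -0.35 (FDR 0.0826) that became -0.46 with an FDR of 0.0018 once PBS 1-1 was left out, and that passed with DESeq2 (0.0407) and with GC offsets (0.0353).

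The epithelial chain Lamb3 and the γ3 chain Lamc3 were present at low levels, with PBS means of 15.99 and 1.44 CPM, and did not pass (FDR 0.0842 and 0.919). Of the 10 laminin chains tested, 3 thus passed, 2 higher and 1 lower (background 4.12% higher and 4.61% lower). With total-count scaling the split was 0 higher and 1 lower, and with DESeq2 it was 2 and 2. Leaving out PBS 1-1 gave 2 higher and 3 lower, a count of 5.

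Nidogens are short rods that bridge laminin and type IV collagen, and both genes were lower in LLC1 mice. Nid1 measured 158, 168, 151 and 179.6 CPM in LLC1 mice and 181, 222, 226 and 258 CPM in PBS mice. The groups were separated by the narrow gap between LLC1 2-2 and PBS 1-1. Its log2 fold change was -0.44 with a SE of 0.10 and an FDR of 0.0195. The FDR was over 0.05 without LLC1 1-2 (0.0587), LLC1 1-3 (0.0538), LLC1 1-5 (0.0629) or PBS 1-3 (0.0604).

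Nid2, enriched in vascular basement membranes, was at 16.7, 20.8, 17.2 and 24.4 CPM in LLC1 mice and 21.4, 32.6, 27.3 and 39.5 CPM in PBS mice. The groups overlapped, since PBS 1-1 lay below LLC1 2-2. The log2 fold change of -0.61 (SE 0.17, FDR 0.0461) was close to the threshold, which 6 of the 8 fits that left out a mouse no longer reached, the exceptions being those without LLC1 2-2 (0.0416) and PBS 1-1 (0.0057). Of the exon bases of Nid2, 8.45% overlap Rtraf on the other strand. The FDR was also over 0.05 with total-count scaling (0.0612), limma-voom (0.0502) and robust empirical Bayes (0.0692).

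Among the other bridging proteins, perlecan (Hspg2), the large proteoglycan of basement membranes, had values of 753, 940.0, 822 and 997 CPM in LLC1 mice and 820.1, 1028, 938 and 1186 CPM in PBS mice. The ranges overlapped widely, and the log2 fold change of -0.18 (95% interval -0.40 to 0.05, FDR 0.362) did not pass. Agrin (Agrn), the proteoglycan that clusters receptors at the neuromuscular junction and binds dystroglycan, averaged 120.4 ± 15.95 CPM in LLC1 and 116 ± 23.9 CPM in PBS mice, with a log2 fold change of 0.05 that turned to -0.01 with total-count scaling and to below 0 with GC offsets, and that lay between -0.07 and 0.17 when single mice were left out.

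Dystroglycan (Dag1) was among the most abundant members and showed no detectable difference. It measured 440.3, 531, 479 and 524 CPM in LLC1 mice and 410.2, 485, 522 and 484 CPM in PBS mice. Both groups covered nearly the same range. The log2 fold change of 0.05 had a 95% interval from -0.11 to 0.22 (FDR 0.734), and its sign turned with total-count scaling or without PBS 1-1.

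Promoter sequence is shown for 4 members that changed: the 2 laminin chains that were higher, and the lower members Nid1 and Itga1, which had the lowest FDR among those with exactly 1 promoter entry. Itga6 and Lama4 have no entry in the table used. The sequences are from RefSeq on build GRCm38.p6, on the strand of the gene and 5′ to 3′, and end at the last base before the first annotated exon base, so that no annotated exon base is included. Capitals mark the GC box GGGCGG or its reverse complement CCGCCC.
Lama5, chr2:180225860-180226109, minus strand: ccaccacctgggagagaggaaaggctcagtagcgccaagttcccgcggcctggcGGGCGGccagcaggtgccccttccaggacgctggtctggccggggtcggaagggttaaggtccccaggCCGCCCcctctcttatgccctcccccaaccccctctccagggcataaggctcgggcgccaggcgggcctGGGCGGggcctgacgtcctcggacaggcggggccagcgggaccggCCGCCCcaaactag
Lamb2, chr9:108479612-108479735, plus strand: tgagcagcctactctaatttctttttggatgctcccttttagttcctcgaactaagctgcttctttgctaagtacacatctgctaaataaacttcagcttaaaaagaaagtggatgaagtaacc
Nid1, chr13:13437352-13437550, plus strand: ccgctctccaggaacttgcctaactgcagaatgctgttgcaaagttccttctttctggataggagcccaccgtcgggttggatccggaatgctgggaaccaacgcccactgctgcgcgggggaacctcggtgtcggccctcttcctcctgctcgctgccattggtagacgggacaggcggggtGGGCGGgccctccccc
Itga1, chr13:115101965-115102214, minus strand: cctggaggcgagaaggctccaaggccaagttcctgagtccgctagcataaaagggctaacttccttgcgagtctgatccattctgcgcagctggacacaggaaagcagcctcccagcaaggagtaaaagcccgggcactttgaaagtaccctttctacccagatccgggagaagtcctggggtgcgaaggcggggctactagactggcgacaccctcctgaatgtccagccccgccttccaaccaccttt

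The 2 laminin chains that rose differed in this sequence. The Lama5 stretch of 250 bases was 72.4% G or C with 4 GC boxes, whereas the shorter Lamb2 stretch of 124 bases was 37.9% G or C with 0. Over the full window of 250 bases Lamb2 was 43.6% G or C, also with 0. The stretches of Nid1 (199 bases) and Itga1 (250 bases) were 63.8% and 57.6% G or C, with 1 and 0 GC boxes. A promoter entry was found for 33 of the members, 41 entries in all, and windows of 250 bases before the start were searched on both strands. A GC box was in 18 of the 41 (43.9%) against 32.7% of the 32851 promoters in the table. CCAAT (reverse complement ATTGG) was in 10 (24.4%, against 33.8%), once in the Nid1 stretch, and TATAAA (reverse complement TTTATA) in 1 (2.44%, against 12.4%). No motif contains another, and a match is a description of the letters only.

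**Figure D2:**
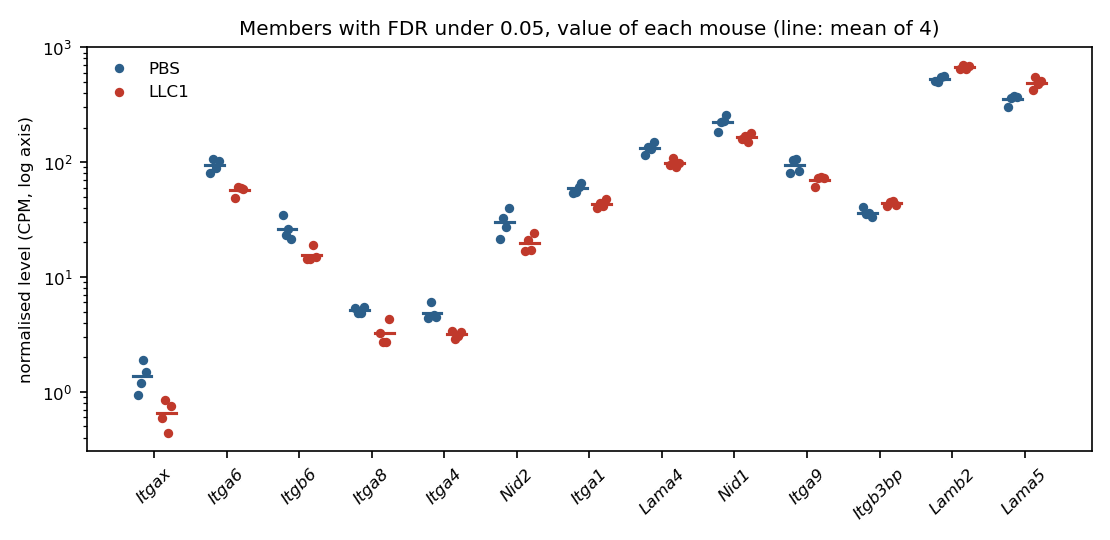
The TMM-normalised level of each mouse, in CPM on a log axis, is plotted for the 13 members with an FDR under 0.05, with a line at the mean of each group of 4. The groups are separate for 12 of the 13, and for Nid2 the lowest PBS mouse lies within the LLC1 range.

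Integrin subunits accounted for 7 of the 10 lower members. Of 24 subunits tested, 7 were lower and 0 higher (background 4.12% higher and 4.61% lower), with a median log2 fold change of -0.26. Leaving out LLC1 1-2, LLC1 1-3, LLC1 1-5 or PBS 1-3 left 3 lower (Itga1, Itga6 and Itgb6), and leaving out LLC1 2-2 or PBS 2-1 left 4. Without PBS 1-1 the counts were 8 and 0, with DESeq2 9 and 0, and with offsets for gene length they were 7 lower and 2 higher. The lowest FDR of any member was that of Itga6, one of 3 α subunits that bind laminin. Itga6 encodes α6, which pairs with β1 on endothelial cells and platelets and with β4 in hemidesmosomes. Its values were 48.4, 60.6, 59.7 and 57.9 CPM in LLC1 mice and 80.0, 106, 88.6 and 103 CPM in PBS mice. All LLC1 mice were below all PBS mice by a wide margin. The level dropped to 0.599 times that of PBS mice (log2 fold change -0.74, SE 0.10, FDR 0.0018). Stretches of 246 to 326 bases of Itga6 are over 97% identical to 6 other gene models, a small part of its 9025 bases of exon.

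Itga7 encodes α7, the laminin receptor subunit of cardiac and skeletal muscle. Its values lay the other way, with 249.9, 260.2, 244 and 249.6 CPM in LLC1 mice and 201, 223, 233 and 237 CPM in PBS mice. The groups did not overlap, but the log2 fold change of 0.17 (95% interval 0.04 to 0.30) had an FDR of 0.131 and among the alternatives passed only with offsets for gene length (0.0436). Itga3, the third laminin-binding subunit, averaged 17.5 ± 1.34 CPM in LLC1 and 14.97 ± 2.52 CPM in PBS mice (FDR 0.282).

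Itga1 encodes α1, the collagen IV receptor subunit of smooth muscle, fibroblasts and capillaries. Its values were 40.1, 44.4, 41.5 and 48.3 CPM in LLC1 mice and 54.4, 55.2, 60.8 and 66.5 CPM in PBS mice. The groups were separate. Itga1 dropped to 0.735 times the PBS level (log2 fold change -0.44, SE 0.08, FDR 0.0097). Itga11 and Itga10, which also encode collagen-binding subunits, were at 5.23 and 2.84 CPM in LLC1 and at 6.44 and 3.45 CPM in PBS mice. Neither passed (FDR 0.179 for Itga11 and 0.509 for Itga10).

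Itga8, Itgav, Itga5 and Itga2b encode the α subunits that recognise the RGD motif of fibronectin and related ligands. Itga8, a subunit of smooth muscle and mesenchymal cells, was at 3.24, 2.70, 2.74 and 4.33 CPM in LLC1 mice and 5.41, 4.84, 4.83 and 5.49 CPM in PBS mice. The groups were separate at 41 to 93 counts per library. It fell by 0.65 on the log2 scale (SE 0.17, FDR 0.0336). The call held in 2 of the 8 fits that left out a mouse, those without LLC1 2-2 (0.0149) and PBS 1-1 (0.0378), and in the others the FDR was up to 0.0994, and it was 0.0631 with GC offsets. Shares of 5.05% of the exon bases of Itga8 and 8.04% of those of Itga4 overlap genes on the other strand (E030013I19Rik and Cerkl).

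Itgav (αv) averaged 24.4 ± 1.10 CPM in LLC1 and 30.0 ± 3.15 CPM in PBS mice, with a log2 fold change of -0.30 and an FDR of 0.0534 that was under 0.05 in 5 of 10 alternatives. Itga5, the classical fibronectin receptor subunit, averaged 74.98 ± 4.68 and 84.7 ± 9.32 CPM (FDR 0.221). The platelet subunit Itga2b averaged 2.99 ± 1.02 and 2.43 ± 0.182 CPM (FDR 0.492). The summed level of platelet markers was 13.6 to 19.3 CPM in LLC1 and 19.9 to 23.6 CPM in PBS mice. Pf4 made up most of that sum (8.71 CPM in LLC1 and 13.05 CPM in PBS mice). Of 4 platelet markers tested, Pf4 alone was called (lower, log2 fold change -0.59, FDR 0.0104, background 4.61%). The Pf4 call held in all 8 fits that left out a mouse and in all 10 alternatives. The values of Ppbp, Gp1ba, Gp1bb and Gp9 each overlapped between the groups. The part of platelets in Itga2b or Itga6 was not tested.

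Itga4 and Itga9 form a subfamily that binds VCAM1, fibronectin, tenascin and osteopontin, and both were lower. Itga4, carried by leukocytes and by mesodermal progenitors, showed 3.37, 2.90, 3.06 and 3.32 CPM in LLC1 mice and 4.38, 6.03, 4.65 and 4.49 CPM in PBS mice. The groups were separate, and PBS 1-3 was far above the other PBS mice. Its log2 fold change was -0.62 (SE 0.15, FDR 0.0238), with an FDR of 0.0770 without PBS 1-3 and between 0.0506 and 0.0748 when any of the LLC1 mice was left out, and 0.0576 with GC offsets.

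Itga9, a subunit of muscle and lymphatic endothelium, was at 60.3, 73.3, 74.1 and 73.2 CPM in LLC1 mice and 80.2, 105, 106 and 84.6 CPM in PBS mice. The groups were separate, and LLC1 1-2 was the lowest of all. The log2 fold change was -0.42 (SE 0.10, FDR 0.0275), and the FDR was under 0.05 only without PBS 1-1 (0.0059) or PBS 2-5 (0.0204) among the fits that left out a mouse, reaching 0.0924 without PBS 1-3.

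The leukocyte α subunits were scarce. Itgax, which encodes CD11c of dendritic cells and macrophages, had 0.595, 0.856, 0.438 and 0.755 CPM in LLC1 mice and 0.944, 1.19, 1.88 and 1.48 CPM in PBS mice. The groups were separate but rested on 8 to 32 counts per library. Its log2 fold change of -1.08 (SE 0.29, FDR 0.0422) had the largest size among the members, and it held without PBS 1-1 (0.0182) but in none of the other 7 such fits, where the FDR was up to 0.118. The call was also lost with the first number of the mouse code (such as 1 in 1-1) as a covariate (0.0593) and with total-count scaling (0.0506).

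Itgam (CD11b), Itgal and Itgad averaged 7.06, 1.85 and 2.63 CPM in LLC1 mice and 8.40, 2.08 and 2.03 CPM in PBS mice, and none passed. Itgad shares 70 exon bases with Cox6a2, a far more abundant gene on the other strand, and reads there cannot be told apart. Macrophage markers summed to 210 to 266 CPM in LLC1 and 217 to 324 CPM in PBS mice, with 1 of 8 called (Mrc1, lower, background 8.73%). The Mrc1 call held in 4 of the 8 fits that left out a mouse and in 8 of 10 alternatives, with an FDR of 0.0836 with GC offsets. All 8 log2 fold changes of these markers were below 0, with a median of -0.27, and their part in the leukocyte integrins was not tested.

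β subunits set the cytoplasmic partners of an integrin. Itgb1 encodes β1, the partner of α1, α5, α6, α7 and others and the main β subunit of the ventricle. It measured 397, 395, 416 and 381 CPM in LLC1 mice and 464, 477, 438 and 433 CPM in PBS mice. The groups did not overlap. The log2 fold change was small at -0.19 (95% interval -0.31 to -0.07) with an FDR of 0.0729, and it passed in 3 of 10 alternatives (DESeq2, total-count scaling and the first number of the mouse code as a covariate) and without PBS 2-5 (0.0499).

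Itgb6 encodes β6, the partner of αv in an integrin that activates latent TGF-β and is known mainly from epithelia. Its values were 14.4, 14.4, 19.0 and 14.9 CPM in LLC1 mice and 34.7, 23.0, 26.2 and 21.3 CPM in PBS mice. The groups were separate, with LLC1 1-5 the highest of its group. Itgb6 dropped to 0.601 times the PBS level (log2 fold change -0.73, SE 0.15, FDR 0.0127). It was the only β subunit called, out of 8 (12.5%, with a background of 8.73%).

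Itgb5 (β5), a vitronectin receptor subunit, averaged 148 ± 8.14 CPM in LLC1 and 125 ± 14.1 CPM in PBS mice with no overlap, and its log2 fold change of 0.25 had an FDR of 0.0839, which was 0.0205 with the first number of the mouse code as a covariate and 0.0396 with length offsets. The leukocyte subunit Itgb2 was at 6.09, 5.66, 6.35 and 4.73 CPM in LLC1 mice and 4.38, 9.96, 9.42 and 8.74 CPM in PBS mice. PBS 1-1 was the lowest of all 8 and the other PBS mice were the highest, so that the FDR was 0.138 with and 0.0036 without it. Itgb3, Itgb4, Itgb7 and Itgb8 had PBS means of 0.865 to 3.37 CPM and did not pass (FDR 0.185 to 0.894).

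Behind the integrin tail, integrin-linked kinase (Ilk), PINCH1 (Lims1) and α-parvin (Parva) form the complex that couples β1 to actin in the costamere, and 0 of the 3 passed. Ilk had 80.2, 81.5, 79.9 and 82.2 CPM in LLC1 mice and 83.5, 93.1, 83.9 and 99.99 CPM in PBS mice. The groups did not overlap, and the log2 fold change was -0.16 (95% interval -0.29 to -0.02, FDR 0.181). Of the exon bases of Ilk, 76.8% overlap Taf10 on the other strand, and since the library kit did not mark strand, reads of the 2 genes there cannot be told apart. Lims1 and Parva had log2 fold changes of -0.09 (FDR 0.520) and -0.06 (FDR 0.697), whose signs turned with GC offsets and with length offsets, respectively. At an unadjusted p under 0.05, which 25.5% of all genes tested reached, 1 of the 3 was counted, Ilk, and DESeq2 and limma-voom called 0.

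The genes with an Itgb symbol whose products are not subunits differ in what they do. Itgb3bp, which despite its name encodes a kinetochore protein, rose 1.20-fold from 36.4 ± 3.07 to 43.8 ± 2.13 CPM (log2 fold change 0.27, SE 0.07, FDR 0.0453). The LLC1 values were 41.8, 44.8, 46.2 and 42.2 CPM and the PBS values 40.7, 35.6, 35.96 and 33.4 CPM. The groups were separate, the call held only without PBS 1-1 (0.0089) among the fits that left out a mouse, and the highest FDR was 0.125. The call was also lost with the mouse code covariate (0.0507) and with total-count scaling (0.0789). Of its exon bases, 8.59% overlap Pgm1, a far more abundant gene on the other strand.

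Melusin (Itgb1bp2), a muscle protein that binds the β1 tail, averaged 199.6 ± 18.7 CPM in LLC1 and 211 ± 26.1 CPM in PBS mice (FDR 0.643). Itgb1bp1, which encodes an inhibitor of β1 activation, averaged 31.5 and 28.3 CPM (FDR 0.191), and 11.4% of its exon bases overlap Asap2 on the other strand. Itgbl1, a secreted protein, averaged 8.61 and 11.4 CPM, with an FDR of 0.146, or 0.0245 without PBS 1-1.

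Levels can be compared between genes per kilobase of the deposited gene length, which sums all annotated exons and so is only approximate for a gene with several isoforms. In the GENCODE annotation used for exon overlap, the exons of Itga7 and Itga1 cover far more bases than the deposited lengths of 4013 and 5984. With those exons the levels and shares per kilobase of Itga7 and Itga1 would be lower in both groups. In PBS mice the highest level per kilobase was that of Itgb1bp2 (117 CPM per kb), followed by Itgb1 (111), Lamb2 (86.6), Dag1 (74.8), Hspg2 (69.4), Itga7 (55.7) and Itgb5 (37.1). The ranges over PBS mice of neighbors in this order overlapped, except between Itgb1 and Lamb2 and between Itga7 and Itgb5. In LLC1 mice Lamb2 (111 CPM per kb) reached the mean level of Itgb1bp2 (111), and Itgb1 stood at 97.3.

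Within the laminin α chains, Lama5 held 67.3%, 70.3%, 70.2% and 69.3% of the summed level per kilobase in LLC1 mice and 56.8%, 58.6%, 58.3% and 55.7% in PBS mice. The share of Lama4 was 13.2% ± 0.740 in LLC1 and 20.4% ± 1.06 in PBS mice, and that of Lama2 16.9% ± 0.843 and 21.4% ± 0.986. None of these shares overlapped between the groups. Of the β chains, Lamb2 held 86.6% in LLC1 and 82.0% in PBS mice, and Lamb1 10.998% and 15.7%, again without overlap. Lamc1 made up 95.2% and 96.5% of the γ chains, with overlapping values.

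Of the α integrins, Itga7 held 55.5% ± 0.854 of the summed level per kilobase in LLC1 and 46.7% ± 1.46 in PBS mice, and Itga6 held 5.57% ± 0.498 and 8.77% ± 0.781. Itgb1 stood at 71.2% of the β integrins in PBS and 66.2% in LLC1 mice, and Itgb5 stood at 23.8% in PBS and 30.0% in LLC1 mice. Shares of a sum are tied to each other, so a larger share of one gene lowers those of the others, and no test was made on them.

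**Figure D3:**
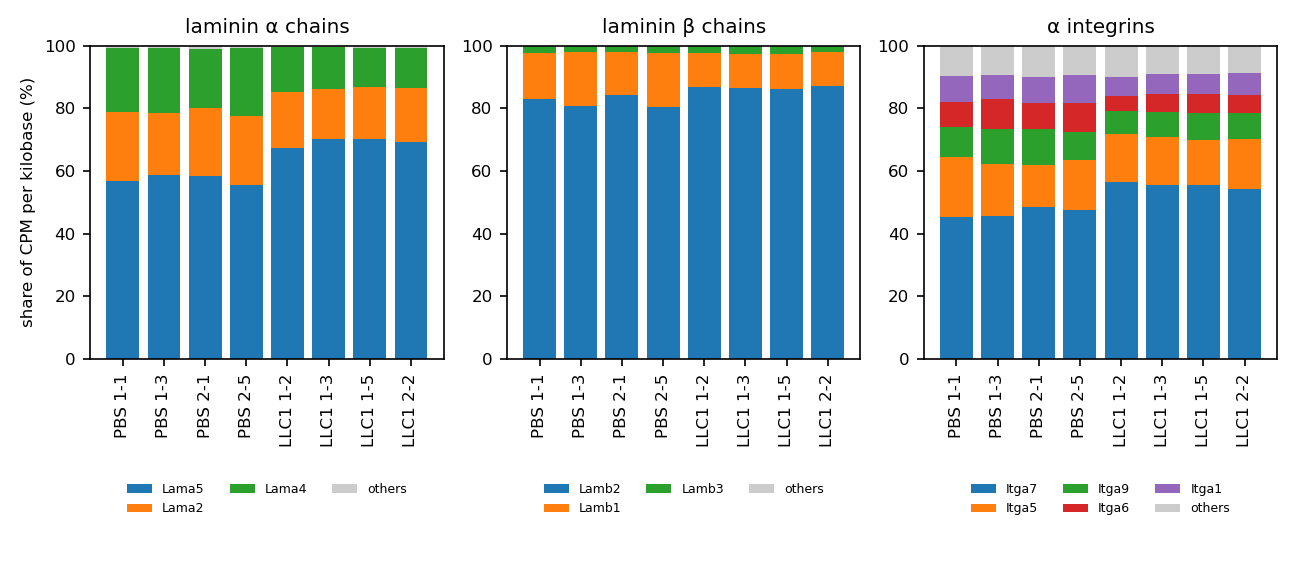
Bars show, for each mouse, the share in percent of the summed CPM per kilobase that each gene holds among laminin α chains, laminin β chains and α integrins. Lama5 takes 67.3% to 70.3% of the α chains in LLC1 mice against 55.7% to 58.6% in PBS mice, and Itga7 a larger and Itga6 a smaller share of the α integrins.

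A ratio of 2 members within a library does not depend on how libraries are scaled to each other, and 5 such ratios were tested by an exact two-sided permutation test over the 70 ways to split the 8 mice. The smallest p that this test can give is 0.0286. The ratio of Itga7 to Itga6, counts per kilobase, was 11.6, 9.66, 9.20 and 9.69 in LLC1 mice and 5.64, 4.72, 5.90 and 5.17 in PBS mice. No LLC1 value came near the PBS range, and the ratio was 1.87-fold higher (exact permutation p = 0.0286, adjusted over the 5 ratios 0.0476). Every LLC1 mouse was above every PBS mouse for Itga7 and below for Itga6, so this ratio had to separate the groups. Its p was therefore fixed at the smallest possible value and adds nothing to the values of the 2 members.

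The ratio of Lamb2 to Lamb1 was 8.08, 7.82, 7.77 and 7.83 in LLC1 mice and 5.65, 4.66, 6.19 and 4.65 in PBS mice. The LLC1 values lay close together above the more scattered PBS values, and the ratio was 1.501-fold higher (exact permutation p = 0.0286, adjusted 0.0476). The ratio of Lama2 to Lama4 was 1.26, 1.21, 1.32 and 1.34 against 1.08, 0.961, 1.14 and 1.02, a 1.23-fold difference without overlap (exact permutation p = 0.0286, adjusted 0.0476).

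For the other ratios the groups overlapped. The ratio of Nid1 to Nid2 was 5.96 to 7.62 in LLC1 and 5.26 to 6.83 in PBS mice (exact permutation p = 0.229, adjusted 0.229). The ratio of Dag1 to Itgb1, whose β1 subunit serves in laminin receptors and in other integrins, was 0.711 to 0.883 in LLC1 and 0.568 to 0.765 in PBS mice (exact permutation p = 0.143, adjusted 0.179). With 3 mice in a group the smallest p is 0.0571, so a fit without a mouse could not pass for any ratio, and the directions of all 5 stayed as given. Chosen after its values were seen, and so not tested, the ratio of Lama5 to Lama4 was 4.74 to 5.62 in LLC1 and 2.58 to 3.06 in PBS mice.

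**Figure D4:**
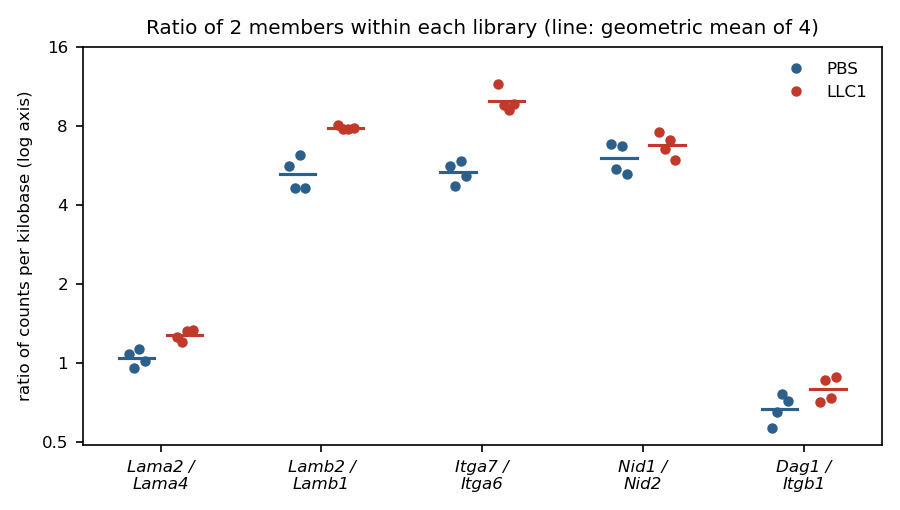
The ratio of counts per kilobase of 2 members is plotted for each mouse on a log axis, with a line at the geometric mean of each group of 4. Ratios of Itga7 to Itga6, Lamb2 to Lamb1 and Lama2 to Lama4 are separate between LLC1 and PBS mice, and those of Nid1 to Nid2 and Dag1 to Itgb1 overlap.

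The genes around the members were taken from 5 lists. Of 25 other basement membrane genes tested, 11 were lower and 0 higher (background 4.12% higher and 4.61% lower), with a median log2 fold change of -0.33, and without PBS 1-1 the counts were 14 and 0, against 7 and 0 without PBS 1-3. DESeq2 gave 11 lower and 2 higher. The 4 with the lowest FDR were Col15a1, a collagen that joins capillary and muscle basement membranes to the interstitium, Ddr2, a collagen receptor kinase, Sparc, a collagen-binding matricellular protein, and Col4a4, a chain of type IV collagen. Col15a1 was at 76.9, 92.8, 84.1 and 101 CPM in LLC1 mice and 151, 188, 167 and 196 CPM in PBS mice, and dropped to 0.507 times the PBS level (log2 fold change -0.98, SE 0.10, FDR 4.9e-04). Log2 fold changes were -0.50 for Ddr2 (FDR 0.0022), -0.88 for Sparc (FDR 0.0034) and -0.75 for Col4a4 (FDR 0.0044).

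Of 16 soluble and matrix ligands of integrins, 8 were lower and 1 higher (background 4.12% higher and 4.61% lower), with a median log2 fold change of -0.35, and the counts were 10 and 1 without PBS 1-1 and 8 and 0 with total-count scaling. Without LLC1 1-2 or PBS 1-3 they were 4 and 0, without LLC1 1-3 or LLC1 2-2 they were 5 and 0, and without LLC1 1-5 they were 4 and 1. Of the 9 called ligands, 4 (Postn, Fbn1, Tnc and Thbs1) passed in all 8 fits that left out a mouse, while Thbs1 had an FDR of 0.0748 with robust empirical Bayes. Postn, encoding periostin, was the most changed by FDR, at 28.8, 19.2, 27.6 and 27.4 CPM in LLC1 mice and 45.9, 79.4, 75.3 and 61.1 CPM in PBS mice, a log2 fold change of -1.346 (SE 0.17, FDR 0.0011). Fbn1 (fibrillin 1) changed by -0.84, Tnc (tenascin C) by -1.74 and Thbs1 (thrombospondin 1) by -1.74 on the log2 scale (FDR 0.0069, 0.0119 and 0.0127). Thbs1 was uneven among PBS mice, with 47.0 and 56.2 CPM in PBS 1-1 and 1-3 and 16.5 and 18.5 CPM in PBS 2-1 and 2-5.

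Of 36 proteins of the adhesion plaque, which link integrin tails to actin, 1 was higher and 1 lower (5.56% called, near the background of 8.73%), with a median log2 fold change of -0.08. Tns1 (tensin 1) rose from 1448 ± 142 to 1871 ± 87.9 CPM (log2 fold change 0.37, FDR 0.0150), and Ptk2, encoding focal adhesion kinase, fell from 47.3 ± 1.38 to 37.7 ± 2.69 CPM (log2 fold change -0.33, FDR 0.0143). The counts moved with the processing, to 3 higher and 2 lower with DESeq2, 3 and 1 with length offsets, 0 and 1 with total-count scaling, 1 higher and 6 lower without PBS 1-1, and 0 (9 at an unadjusted p under 0.05) without PBS 1-3.

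Of 14 dystrophin-associated proteins, 3 were higher and 1 lower (background 4.12% higher and 4.61% lower). Among the higher ones was Sgca, which encodes α-sarcoglycan, a protein that stabilizes dystroglycan in the muscle membrane, and the lower one was utrophin (Utrn), the dystrophin relative. Sgca was at 177, 174, 171 and 163 CPM in LLC1 mice and 124, 125, 126 and 134 CPM in PBS mice, with no overlap, and rose 1.347-fold (log2 fold change 0.43, SE 0.06, FDR 0.0017). The log2 fold change of Utrn was -0.23 (FDR 0.0456), and this call held in 2 of the 8 fits that left out a mouse and in 6 of 10 alternatives. Total-count scaling gave 1 higher and 1 lower, DESeq2 3 and 2, and the fits with length offsets or without PBS 1-1 gave 3 and 0. Leaving out LLC1 1-2, LLC1 1-3 or PBS 1-3 gave 2 and 0, and leaving out LLC1 1-5 gave 1 and 0.

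Of 15 enzymes that glycosylate dystroglycan, the modification by which it binds laminin, edgeR called 0 (background 8.73%), and limma-voom and DESeq2 called 0 as well. At an unadjusted p under 0.05 (background 25.5%) there were 2, among them Pomgnt2 (log2 fold change 0.24), named here after its values were seen.

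Cell type markers moved alongside these genes to different degrees. The 10 endothelial markers summed to 1229 to 1415 CPM in LLC1 and 1324 to 1687 CPM in PBS mice, with overlap. Of them 3 were called (background 8.73%) and 9 had log2 fold changes below 0, with a median of -0.18. Kdr, a receptor of VEGF, and Emcn were lower (log2 fold changes -0.61 and -0.31), and Flt1, the other VEGF receptor, was higher (0.35). Of the 8 fits that left out a mouse, Kdr passed 8, Emcn 5 and Flt1 3. Flt1 had an FDR of 0.0719 with total-count scaling, and Emcn passed in 8 of 10 alternatives, with an FDR of 0.0926 with GC offsets. The 8 smooth muscle and pericyte markers summed to 1317 to 1360 CPM in LLC1 and 1426 to 1634 CPM in PBS mice with no overlap. Of them 0 were called by edgeR, with 3 at an unadjusted p under 0.05, 0 called by limma-voom and 1 by DESeq2. Rgs5 made up the largest part of that sum (576 CPM in LLC1 and 664 CPM in PBS mice, log2 fold change -0.21, FDR 0.113), followed by Abcc9 (492 and 499 CPM). All 8 log2 fold changes were below 0, with a median of -0.15. The 8 fibroblast markers summed to 2239 to 2622 and 2137 to 2520 CPM, with 3 lower (Lum, Col1a1 and Col1a2, background 4.61%). Lum passed all 8 fits that left out a mouse, Col1a2 passed 4 and Col1a1 passed 1. Col1a1 also passed in only 6 of 10 alternatives, with an FDR of 0.101 with robust empirical Bayes. Gsn, encoding gelsolin, made up most of that sum (1583 CPM in LLC1 and 1327 CPM in PBS mice, log2 fold change 0.25, FDR 0.0746), while 6 of the 8 log2 fold changes were below 0 and their median was -0.21.

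The 8 cardiomyocyte markers summed to 104207 to 112023 CPM in LLC1 and 95385 to 97942 CPM in PBS mice, with no overlap and 1 called (Myh6, higher, background 4.12%). The Myh6 call held in 4 of the 8 fits that left out a mouse and was lost with GC offsets (FDR 0.142). Myh6 alone averaged 54332 CPM in LLC1 and 45869 CPM in PBS mice, and over the 8 markers 6 log2 fold changes were above 0 and 2 below (Actc1 -0.05 and Ryr2 -0.17), with a median of 0.12. The 6 markers of dividing cells summed to 2.11 to 4.70 CPM in LLC1 and 14.1 to 45.2 CPM in PBS mice, and all 3 that could be tested were lower. Neutrophil markers summed to 3.27 to 6.06 against 1.24 to 2.92 CPM, and those of T and NK cells to 1.04 to 1.72 against 1.373 to 2.72 CPM. Of 3 neutrophil markers tested, 2 were higher (background 4.12%), S100a9 (log2 fold change 1.72, FDR 0.0109) and S100a8 (1.76, FDR 0.0337). They had at most 22 and 18 counts in a library, and passed 8 and 1 of the 8 fits that left out a mouse. The part of these cell types in the lower Lama4, nidogens and integrin subunits, or in the higher Lama5, Lamb2 and Itga7 to Itga6 ratio, was not tested.

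**Figure D5:**
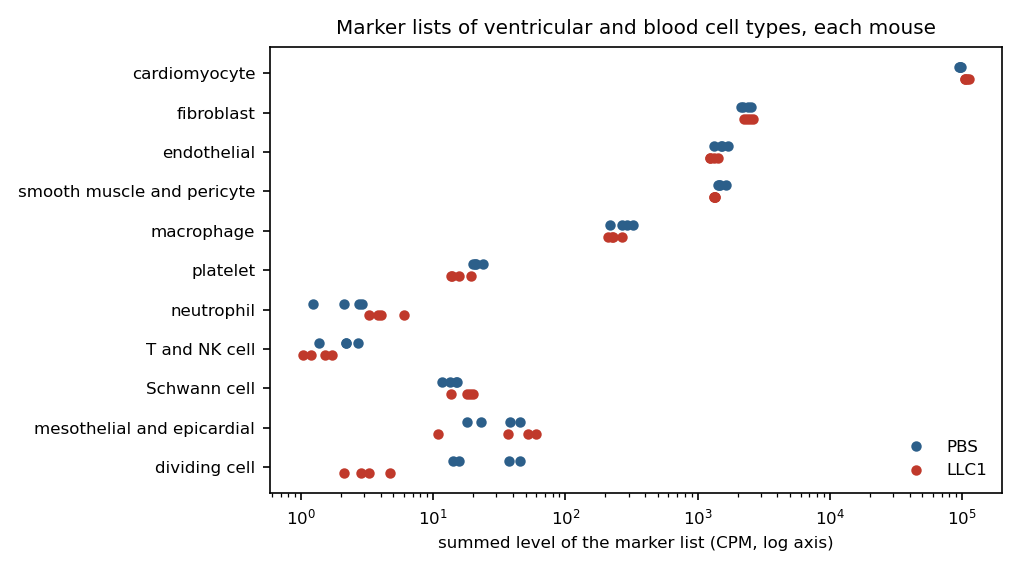
The summed level of each marker list, in CPM on a log axis, is plotted for each mouse. LLC1 and PBS mice are separate for the lists of cardiomyocytes, smooth muscle and pericytes, platelets, neutrophils and dividing cells, and overlap for endothelial, fibroblast, macrophage, T and NK cell, Schwann cell and mesothelial lists.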

How the data were processed

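Libraries of 8 mouse ventricles (4 LLC1, 4 PBS) were made with a TruSeq RNA kit that does not mark strand. The authors aligned the reads and counted reads per gene, and the counts were deposited as whole numbers without normalization. CASAVA, STAR, featureCounts and mm10 are named in the submitters' processing notes. Their versions, the annotation and the strand setting of the counting are not given in the sources used here. Groups were taken from the labelled treatment. Counts were compared with edgeR 4.0.16 in R 4.3.3 (filterByExpr, TMM factors, quasi-likelihood F-test, no covariate, adjustment over 16111 genes). The standard error is the log2 fold change divided by the square root of F, in size. The 95% intervals reach 1.96 standard errors to either side. They leave out the small number of mice, which the F-test takes into account, and so are somewhat too narrow. That of Itga5, for example, was -0.34 to -0.01 while its unadjusted p by the F-test was 0.0619. Levels are TMM-normalised CPM, and levels per kilobase use the deposited gene length. Nothing states separate litters or days, so p-values measure the spread between these mice. The alternatives were DESeq2 1.42.0, limma-voom (limma 3.58.1), other scalings, filters, offsets (loess span 0.3), a covariate and each mouse left out. Similar transcripts were searched with BLAST 2.17.0. Python 3.11.15 with pandas 2.3.3 and scipy 1.17.1 served for the other steps. Statistics are given in full for members with an FDR under 0.05 and for Itgb1, Itga7, Itga6, Lama2, Lama4, Lamb1, Lamb2, Lamc1, Nid1, Hspg2, Dag1 and Ilk, and up to 4 called genes are named from each pathway list. Members, lists and alternatives were chosen with earlier results of these data known. Symbols not found in the table included Tns2, Ccn1, Ccn2 and Adgre1. A few genes enter the counts of calls but are not reported singly here. Of the gene IDs, 42462 were also in the GENCODE annotation used for exon overlap and GC content.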

Additional observations from a re-analysis of the deposited data

Results flagged for a closer look

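In 52 groups of 4 values (each member tested that is described in full, and each ratio, in each group of mice), 4 had a mouse far from the others, where chance alone marks about 1 in 20. Itga4 was at 6.03 CPM in PBS 1-3 and at 4.38 to 4.65 CPM in the other PBS mice. Itga9 was at 60.3 CPM in LLC1 1-2 and at 73.2 to 74.1 CPM in the other LLC1 mice. Itgb6 was at 19.0 CPM in LLC1 1-5 and at 14.4 to 14.9 CPM in the other LLC1 mice. Lama5 was at 305 CPM in PBS 1-1 and at 364 to 376 CPM in the other PBS mice. The 4 values came from 4 different mice, and in each case the mouse lay on its own group's side of the other group.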

How the results depend on the processing

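No paired analysis was possible because the groups share only the replicate code 1-3, carried by different mice. With all 8 mice, the 10 alternatives called 10 to 16 of the members and 22 to 32 of the pathway genes (13 and 26 in the reported fit), and the median log2 fold change of the members was -0.23 to -0.11. Over these alternatives, 118 values of members called kept their call and 11 lost it, none with a change of sign. Leaving out a mouse gave 6 to 17 members called, 13 to 35 pathway genes and a median of -0.20 to -0.15. The pathway count was 13 without PBS 1-3, 17 without LLC1 1-2 or LLC1 1-3 and 16 without LLC1 1-5. Such fits have fewer mice, and 41 values of called members were then over the threshold and 63 under it. The log2 difference between groups in the Itga7 to Itga6 ratio was 0.83 to 0.95 without a mouse, that of Lamb2 to Lamb1 0.53 to 0.66, and that of Lama2 to Lama4 0.25 to 0.33, and the exact test cannot pass with 7 mice. Dag1 reversed to -0.0033 with total-count scaling and to -0.0096 without PBS 1-1 (range without a mouse -0.0096 to 0.106), and the cause was not tested. Scaling to total counts moved the median of all genes from -0.01 to -0.06. Depth limits the scarce members: Itgax, Itgb7, Itgb8 and Lamc3 had 8 to 58 counts in a library, and a difference in Itga2, Itgae, Itgb2l or Lama1 was not detectable.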
